A study of Mus musculus with 12 samples.

Results

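Genes of endothelial identity were followed through RNA libraries of sorted lung macrophages and monocytes, cells that are not endothelial. The 35 genes were chosen by symbol and make up 35 of the 26608 gene rows of the count files. They comprise 11 junction and surface glycoproteins, 5 receptors of VEGF and angiopoietin signalling with a partner phosphatase, 4 receptors and partners of BMP and TGF-beta signalling, 3 transcription factors, 5 genes of vasoactive signalling, 3 genes of caveolae and endothelial diaphragms, 2 coagulation genes and 2 further genes of lung capillaries. Each of the 35 had at least 1 count in every library, and all 35 were among the 14254 genes that passed the filter on low counts.

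The 12 libraries formed 4 groups of 3 and came from mice of the strain C57Bl/6 that had all spent 3 weeks in hypoxia with a weekly dose of SU5416. Lungs gave pools of about 250 sorted cells per library, either interstitial macrophages (IM), which sit in the tissue between airspaces and vessels, or nonclassical monocytes (NCM, titled RM in the labels), which crawl along the inner face of small vessels. Cre-positive animals were Cx3cr1cre;Hif1αΔ/Δ, so that Cre from the locus of a chemokine receptor of monocytes and macrophages deletes the oxygen-regulated subunit of HIF-1, and Cre-negative animals were Hif1αflox/flox. Controls thus carried no Cre, and an effect of the Cre allele cannot be told apart from one of the deletion. No animal was kept in normal air or without SU5416, so that the exposure itself was not compared. Libraries are named below by cell type and by the number in their label: IM648, IM659 and IM660 (IM Cre-negative), IM649, IM650 and IM661 (IM Cre-positive), NCM648, NCM657 and NCM659 (NCM Cre-negative), and NCM649, NCM650 and NCM661 (NCM Cre-positive). Values of a group are listed in this order. Whether a number marks one animal is not given in the labels, so p-values measure only the spread between these libraries.

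The endothelium is the single cell layer that lines vessels. Its cells are held together by VE-cadherin (Cdh5), claudin-5 (Cldn5) and related adhesion proteins, and they depend on VEGF signalling through the receptor kinases VEGFR2 (Kdr) and VEGFR1 (Flt1), the kinases that SU5416 inhibits. Hypoxia combined with SU5416 is a rodent model of pulmonary hypertension, a disease of small lung vessels in which the endothelial BMP receptors Bmpr2, Acvrl1 and endoglin (Eng) carry known disease mutations. Several of the 35 genes are not private to endothelium. Pecam1, Flt1, Thbd and Eng are also transcribed by monocytes or macrophages, Car4 is also known in alveolar macrophages, and Bmpr2 is widely expressed.

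Promoter sequences are shown for 4 members at the ends of the pattern described below. Cd34, Cav2 and Robo4 had the lowest adjusted p-values between the NCM genotypes, and Flt1 had the smallest positive difference. The windows run from 250 bases before to 50 bases after an annotated start, come from RefSeq on GRCm38.p6, and lie at chr1:194938571-194938870 on the plus strand for Cd34, chr6:17280935-17281234 on the plus strand for Cav2, chr9:37401722-37402021 on the plus strand for Robo4 and chr5:147725962-147726261 on the minus strand for Flt1. Capitals mark AGGAAG or its reverse complement CTTCCT, a form of the element that ETS factors such as Erg and Fli1 bind.
Cd34: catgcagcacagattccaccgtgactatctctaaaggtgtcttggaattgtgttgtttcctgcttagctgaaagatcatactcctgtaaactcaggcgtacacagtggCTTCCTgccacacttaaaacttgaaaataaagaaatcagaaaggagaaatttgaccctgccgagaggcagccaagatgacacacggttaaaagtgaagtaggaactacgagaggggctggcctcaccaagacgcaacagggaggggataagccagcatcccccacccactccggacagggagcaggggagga
Cav2: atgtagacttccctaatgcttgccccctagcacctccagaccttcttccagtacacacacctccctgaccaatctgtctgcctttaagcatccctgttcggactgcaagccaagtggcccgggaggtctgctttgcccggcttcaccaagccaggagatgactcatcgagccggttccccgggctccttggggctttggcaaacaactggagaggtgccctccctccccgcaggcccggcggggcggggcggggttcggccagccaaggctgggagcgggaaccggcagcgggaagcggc
Robo4: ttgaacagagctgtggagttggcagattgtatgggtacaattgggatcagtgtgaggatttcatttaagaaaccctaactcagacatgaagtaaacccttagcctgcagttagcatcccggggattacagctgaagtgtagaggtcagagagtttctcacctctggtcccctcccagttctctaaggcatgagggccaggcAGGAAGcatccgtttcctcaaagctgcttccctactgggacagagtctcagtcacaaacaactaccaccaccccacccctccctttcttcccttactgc
Flt1: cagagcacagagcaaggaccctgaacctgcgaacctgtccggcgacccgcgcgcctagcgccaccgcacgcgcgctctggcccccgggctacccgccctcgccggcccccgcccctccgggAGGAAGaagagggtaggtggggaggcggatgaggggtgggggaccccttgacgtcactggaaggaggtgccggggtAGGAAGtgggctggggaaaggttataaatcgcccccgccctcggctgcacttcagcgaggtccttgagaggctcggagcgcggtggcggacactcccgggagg
The letters occurred once in the Cd34 and Robo4 windows, 2 times in the Flt1 window and not in the Cav2 window. RefSeq windows were matched for 19 of the 35 members, 24 windows in all, of which 12 (50%) held AGGAAG on either strand, against 35.4% of all 32851 windows of that length. The SOX motif ACAATG was in 8.33% of the members' windows and 12.6% of all windows, and the hypoxia response core ACGTG was in 12.5% and 19.6%. No test was made of these shares, and a match is a description of the letters only.

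Depth was 5332600 to 14099509 gene counts per library. Of these the 35 genes took 16202 counts in NCM648 (0.224%) to 254358 counts in NCM661 (2.28%), and their lowest share was 0.215%, in IM661. The labelled cell types carried their markers: the summed level of 11 NCM markers was 9248 to 15317 CPM (counts scaled to the library's size) in NCM Cre-negative, 3997 to 8466 in NCM Cre-positive and 1400 to 1996 in the 6 IM libraries, whereas 10 IM markers summed to 9899 to 14992 CPM in IM and 501 to 2715 in NCM. NCM661 stood apart from the other NCM libraries, with Ptprc, the gene of the pan-leukocyte antigen CD45, at 662 CPM against 2038 to 2726 CPM in the other 5. Each member's log2 fold change between the NCM genotypes is also given without NCM661. DESeq2 counts, medians by role, medians of other endothelial lists and the genes of closest pattern are given only with it. Hif1a, the targeted gene, was at 231, 212 and 243 CPM in IM Cre-negative, 192 to 205 in IM Cre-positive, 246, 221 and 207 in NCM Cre-negative and 154, 212 and 150.3 in NCM Cre-positive. Whole-gene counts of Hif1a did not differ by genotype past the threshold in IM (log2 fold change -0.20, edgeR adjusted p = 0.938) or NCM (-0.38, adjusted p = 0.407), and they do not measure the excision of single exons. Reads outside annotated exons made up 38.5 to 44.2% of gene counts plus non-exonic reads in IM Cre-negative, 59.2 to 69.8% in IM Cre-positive, 58.1 to 66.8% in NCM Cre-negative and 55.1 to 72.7% in NCM Cre-positive.

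The summed level of the 35 genes was 5272, 7771 and 2716 CPM in IM Cre-negative, 5726, 9144 and 2636 in IM Cre-positive, 2391, 4092 and 7388 in NCM Cre-negative and 10758, 9215 and 22576 in NCM Cre-positive. The 3 NCM Cre-positive libraries held the 3 highest sums of the series, although IM650, at 9144 CPM, lay just under NCM650, at 9215 CPM. The other 3 groups covered much the same range, from 2390.5 to 9144 CPM. As shares of gene counts the sums were 0.511% ± 0.255 (SD, n = 3) in IM Cre-negative, 0.612% ± 0.387 in IM Cre-positive, 0.448% ± 0.258 in NCM Cre-negative and 1.51% ± 0.673 in NCM Cre-positive. In libraries of whole sorted pools, more cells of a type and more RNA per cell cannot be told apart. The sums of libraries with the same number differed most for IM661 and NCM661, the lowest IM and the highest NCM sum.

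**Figure D1:**
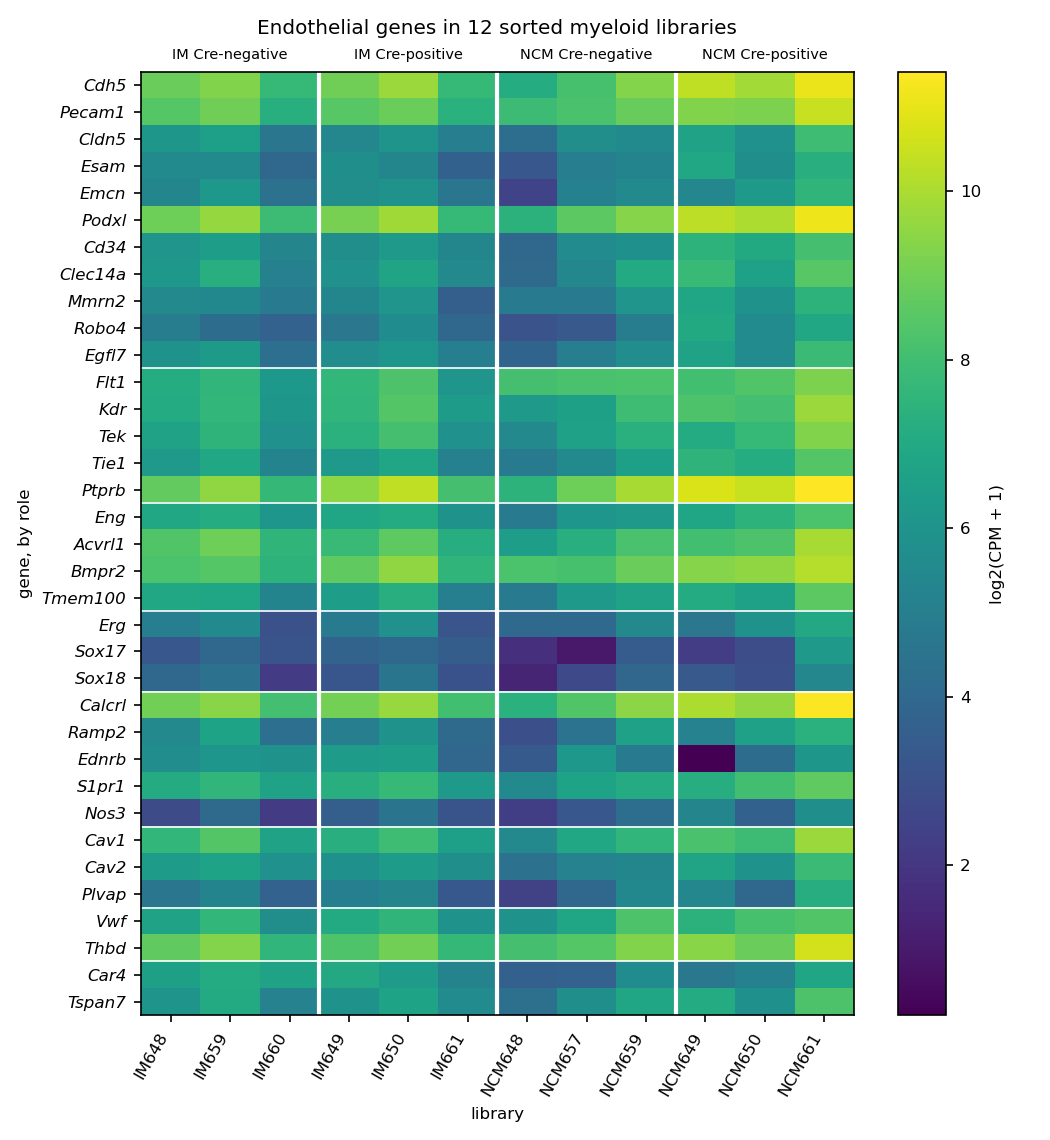
Level of the 35 endothelial genes, as log2(CPM + 1), in each of the 12 libraries (columns, by group) with genes in rows by role. NCM661 is the brightest column for most genes. NCM649 and NCM650 lie below an IM column for many genes, such as Tek (137 and 209.5 CPM against 275.5 CPM in IM650). The dark cell in the Ednrb row is NCM649 with 1 count.

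Per length of exon sequence, Thbd, Cdh5, Calcrl and Podxl were the leading 4 genes in every group. In RPKM (CPM per kilobase of exon) from group means, Thbd, the thrombin receptor thrombomodulin, was at 111 in IM Cre-negative and 113 in NCM Cre-negative. Cdh5 followed at 103 and 84.5 RPKM, Calcrl at 99.8 and 83.0, and Podxl at 92.1 and 74.6. These 4 neighbours in the order lay within the spread between libraries, with Thbd at 421 ± 185 CPM and Cdh5 at 355 ± 254 CPM (SD, n = 3) in NCM Cre-negative. In NCM Cre-positive libraries Cdh5 came first at 347 RPKM, followed by Calcrl at 301, Podxl at 277 and Thbd at 244. At the other end, Sox17 was at 0.936 RPKM in NCM Cre-negative and 5.86 in NCM Cre-positive, and Nos3, the endothelial nitric oxide synthase, at 2.46 and 8.47.

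Between the NCM genotypes, 34 of the 35 endothelial genes were at a higher level in Cre-positive libraries, Ednrb being the exception, and the median log2 fold change was 1.76 against -0.10 over all 14254 genes tested. None of the 35 passed an adjusted p of 0.05 in edgeR's quasi-likelihood test with Benjamini-Hochberg adjustment, a threshold that 60 genes (0.421% of those tested) passed. At an unadjusted p of 0.05, 27 of 35 were higher in Cre-positive NCM, where 7.42% of all genes were. A log2 fold change above 0 was found in 45.6% of all genes. The 3 Cre-positive libraries all lay above the 3 Cre-negative libraries for 16 of 35 members, against 5.9% of all genes. DESeq2 with independent filtering, the alternative count test, put 20 of 35 members past the threshold, all higher, against 4.23% of all genes, and 18 without independent filtering, against 4.13% (Clec14a and Tek were the 2 not among them). DESeq2 gave no adjusted p for Sox17. Counts of members and of all genes come from the same libraries, and the members are not independent of each other. The members were also chosen with earlier results of these data known, so the shares of all genes beside them are a description and no test. Under DESeq2's size factors the median over all genes moved from -0.10 to 0.04 and that of the members from 1.76 to 1.92.

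By role, the median log2 fold change between the NCM genotypes was 1.89 for the junction and surface glycoproteins (11 of 11 with an unadjusted p under 0.05), 1.77 for VEGF and angiopoietin signalling (4 of 5), 1.56 for BMP and TGF-beta signalling (4 of 4), 1.49 for transcription factors (1 of 3), 1.5 for vasoactive signalling (3 of 5), 1.96 for caveolae and diaphragms (2 of 3), 0.90 for coagulation (1 of 2) and 1.35 for the further capillary genes (1 of 2). Among the junction and surface glycoproteins, 7 of 11 lay higher in every NCM Cre-positive library than in any Cre-negative one. Cd34, a sialomucin of capillary endothelium and progenitor cells (chr1:194938821-194961292, the span of the gene on GRCm38, as for the genes below), was at 15.1, 48.3 and 56.5 CPM in Cre-negative and 177, 128 and 272 CPM in Cre-positive NCM. The ranges did not overlap (log2 fold change 2.27, SE 0.47, adjusted p = 0.0502), and the edgeR p lay just outside the threshold. Robo4, a receptor that stabilises the vessel barrier (chr9:37401902-37414023), was at 7.38, 9.05 and 30.4 CPM and 129.8, 48.5 and 116 CPM. Its Cre-positive libraries were all higher, with NCM659 the highest of the controls (log2 fold change 2.65, SE 0.64, adjusted p = 0.0606, edgeR).

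Cdh5, the adherens junction cadherin of endothelium (chr8:104101613-104144504), was at 142, 288 and 636 CPM in Cre-negative and 1279, 934 and 2167 CPM in Cre-positive NCM (log2 fold change 2.04, SE 0.58, adjusted p = 0.107, edgeR). Podxl, an anti-adhesive sialomucin of the luminal surface, was at 169.7, 383 and 675 CPM and 1271, 1051 and 2233 CPM. Both genes showed the same order of libraries, from NCM648 as the lowest to NCM661 as the highest. Pecam1, the platelet and endothelial adhesion molecule CD31, was at 240.2, 289 and 452 CPM and 619, 588 and 1408 CPM, with a smaller log2 fold change of 1.42 (SE 0.48). Cldn5, the tight junction claudin, was at 18, 52.8 and 47.1 CPM and 101, 58.6 and 241 CPM, so that NCM650 lay only just above the controls. Esam, another junction adhesion molecule, also had no overlap and a log2 fold change of 2.07. Emcn, Clec14a, Mmrn2 and Egfl7 overlapped between the genotypes, each through 1 Cre-positive library below NCM659, and had log2 fold changes of 1.85, 1.83, 1.52 and 2.0. Adjusted p-values of the group ran from 0.0502 to 0.225 in edgeR.

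Of the receptors that SU5416 inhibits, Kdr was at 75.4, 94.3 and 246 CPM in Cre-negative and 310.3, 266 and 839 CPM in Cre-positive NCM (log2 fold change 1.77, SE 0.60, adjusted p = 0.155, edgeR). Its Cre-positive libraries all lay above the controls. Flt1 (chr5:147561604-147726438) was at 279, 292 and 304 CPM and 261, 329 and 597 CPM (log2 fold change 0.44, SE 0.47, adjusted p = 0.691, edgeR). Its 3 control libraries were nearly equal, NCM649 lay below all of them, and only NCM661 stood clearly above. Without NCM661 the log2 fold change of Flt1 was 0.02 and that of Kdr 1.06. Of the angiopoietin receptors, Tie1 was at 28.5, 47.3 and 91.9 CPM and 181, 142 and 346 CPM without overlap (log2 fold change 1.99, SE 0.54, adjusted p = 0.0921, edgeR). Tek (TIE2), the receptor that binds angiopoietins, overlapped because NCM649 lay below NCM659, at 137 against 159.9 CPM, with a log2 fold change of 1.70, or 0.79 without NCM661. Ptprb (VE-PTP), the phosphatase that restrains TIE2 and VE-cadherin phosphorylation, was at 175, 484 and 973 CPM and 1778, 1417 and 2727 CPM, without overlap (log2 fold change 1.86, SE 0.62).

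All 4 genes of BMP and TGF-beta signalling had an unadjusted p under 0.05, and none had an adjusted p under it. Eng, the co-receptor endoglin, was at 27.0, 67.6 and 74.8 CPM in Cre-negative and 109.9, 174 and 302 CPM in Cre-positive NCM. The genotypes did not overlap, and the difference was 3.46-fold (log2 fold change 1.79, SE 0.46, adjusted p = 0.0739, edgeR). Bmpr2, the type II receptor, was at 298, 287 and 467 CPM and 656, 744 and 1148 CPM, also without overlap, with the smallest fold of the 4 (2.42-fold, log2 SE 0.42). Acvrl1 (ALK1), the type I receptor, was at 88.4, 152 and 290.0 CPM and 256, 315 and 975 CPM, with NCM649 below NCM659. Tmem100, a membrane protein induced by ALK1 signalling, was at 27.4, 77.3 and 101 CPM and 136, 98.2 and 381 CPM, with NCM650 just below NCM659.

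The 3 transcription factors all overlapped between the NCM genotypes. Sox17, a factor of arterial endothelium, was at 2.36, 0.979 and 10.1 CPM in Cre-negative and 3.80, 6.32 and 73.8 CPM in Cre-positive NCM. Only NCM661 was high, and the log2 fold change of 2.64 (SE 1.09) was 0.18 without it. Sox18 was at 1.62, 5.5 and 14.3 CPM and 9.24, 6.76 and 41.0 CPM, and its log2 fold change went from 1.41 to 0.16 without NCM661. Erg, the ETS factor that maintains endothelial identity, was at 15.3, 15.4 and 44.2 CPM and 23.9, 59.7 and 126 CPM, with NCM649 below NCM659. These low levels rest on few reads, with 8 counts of Sox17 and 11 of Sox18 in their lowest libraries.

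Of the genes of vasoactive signalling, Calcrl, the receptor for adrenomedullin and CGRP, was at 166, 332 and 718 CPM in Cre-negative and 1053, 772 and 2579 CPM in Cre-positive NCM, without overlap (log2 fold change 1.86, SE 0.58). Its partner Ramp2, which makes Calcrl an adrenomedullin receptor, was at 6.64, 21.2 and 98.1 CPM and 35.6, 98.5 and 163 CPM, and the genotypes overlapped. S1pr1, a receptor for sphingosine 1-phosphate that supports barrier function, was at 47.2, 104 and 137 CPM and 145, 256 and 410.4 CPM, without overlap (log2 fold change 1.5, SE 0.46). Nos3 was at 3.98, 8.44 and 18.1 CPM and 39.3, 11.9 and 53.8 CPM, with NCM650 inside the range of the controls. Ednrb, the endothelin B receptor, was the one member with a lower fitted level in Cre-positive NCM, at 9.44, 72.5 and 26.4 CPM against 0.165, 17 and 70.7 CPM (log2 fold change -0.29, SE 1.09, adjusted p = 0.929, edgeR). NCM649 had a single count of Ednrb, and the sign of the difference turned when that library or NCM657 was left out (0.28 and 0.71) and with lane as covariate (0.17).

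Both caveolin genes were higher in every Cre-positive NCM library than in any control. Cav2 (chr6:17281185-17289130) was at 19.8, 35.7 and 40.3 CPM in Cre-negative and 108, 62.0 and 232 CPM in Cre-positive NCM, with NCM650 the nearest to the controls (log2 fold change 2.07, SE 0.45, adjusted p = 0.0502, edgeR). Cav1, the main structural protein of caveolae, was at 44.6, 118 and 193 CPM and 297, 237 and 848 CPM (log2 fold change 1.96, SE 0.60, adjusted p = 0.129, edgeR). Plvap, a protein of the diaphragms of caveolae and fenestrae, was at 4.28, 15.2 and 43.2 CPM and 41.7, 15.1 and 144 CPM, where NCM661 alone lay clearly above the controls. The coagulation genes had smaller differences: Vwf, the von Willebrand factor, was at 59.2, 109.5 and 316 CPM and 171, 285 and 326 CPM (log2 fold change 0.69, SE 0.58), and Thbd at 278, 355 and 629.7 CPM and 680.1, 460.1 and 1587 CPM (1.11, SE 0.51). Both overlapped between the genotypes. Car4, a carbonic anhydrase of lung capillaries, was at 11.5, 12.2 and 50.5 CPM and 25.2, 33.8 and 115 CPM, and Tspan7 at 19.2, 54.9 and 110.4 CPM and 137, 56.7 and 314 CPM. Those 2 capillary genes overlapped as well.

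**Figure D2:**
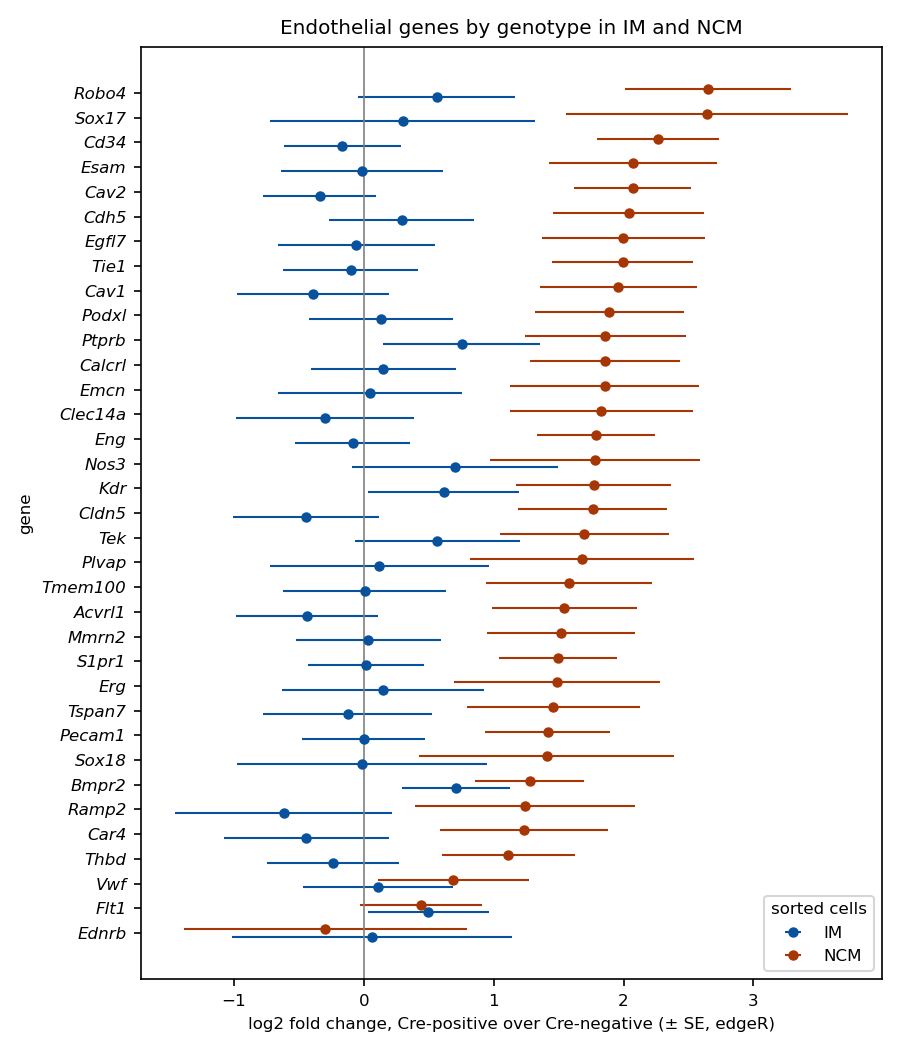
Log2 fold change of each endothelial gene, Cre-positive over Cre-negative, with its SE from the edgeR fit (points and lines), in IM and NCM, ordered by the value in NCM. NCM values run from -0.29 for Ednrb to 2.65 for Robo4 with a median of 1.76, and IM values lie on both sides of 0 with a median of 0.02.

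Library NCM661 carried much of the size of these differences. Without it the median log2 fold change of the members was 1.05 in place of 1.76, and 34 of 35 were still above 0. An unadjusted p under 0.05 was found for 10 of 35, and no share of all genes is given for that count. Cd34 was the only member past the threshold (log2 fold change 1.93, edgeR adjusted p = 0.0457), among 570 genes in all, against 60 genes with every library. Without NCM659, the control library with the highest member sum, the median was 2.37, and Cd34 and Robo4 passed (adjusted p = 0.0466 and 0.0402 in edgeR), among 98 genes. Without NCM650, Cd34, Cav2 and Robo4 passed (adjusted p = 0.0294, 0.0200 and 0.0358), among 261 genes. Without IM661, a library of the other cell type that entered the scaling, the filter and the shared estimate of spread, Cd34 and Cav2 did (adjusted p = 0.0458 and 0.0470), among 91 genes. Of the other junction and surface genes, the log2 fold change without NCM661 was 1.64 for Cdh5, 0.88 for Pecam1, 1.02 for Cldn5, 1.75 for Esam, 1.05 for Emcn, 1.51 for Podxl, 1.29 for Clec14a, 1.10 for Mmrn2, 2.51 for Robo4 and 1.23 for Egfl7. Among receptors and their partners it was 1.53 for Tie1, 1.55 for Ptprb, 1.33 for Eng, 0.69 for Acvrl1, 1.0 for Bmpr2, 0.77 for Tmem100, 1.17 for Calcrl, 0.67 for Ramp2 and 1.06 for S1pr1, while Ednrb went to -2.06. For the remaining members it was 0.74 for Erg, 1.33 for Nos3, 1.17 for Cav1, 1.41 for Cav2, 0.44 for Plvap, 0.50 for Vwf, 0.44 for Thbd, 0.25 for Car4 and 0.65 for Tspan7. The largest decreases were thus in Sox17, Plvap, Sox18 and Ednrb, and Robo4 moved least. Within lane 6, the member sum had a mean of 5739.7 CPM over 2 control libraries and was 9215 CPM in NCM650. Within lane 8 it was 2390.5 CPM in NCM648 and had a mean of 16667 CPM over the 2 Cre-positive libraries, NCM649 (10758 CPM) and NCM661 (22576 CPM). One of the genotypes had a single library in each lane.

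Levels of other cells' markers differed alongside the endothelial genes in NCM. The 11 NCM markers were all at a lower fitted level in Cre-positive libraries, and their sums did not overlap (9248 to 15317 against 3997 to 8466 CPM, lowest in NCM661). The same held for 8 general leukocyte genes, at 8048 to 9685 against 2517 to 6873 CPM. Of 10 IM markers, 9 were at a lower fitted level, with a median log2 fold change of -1.42, and their sums did not overlap either (1518 to 2715 against 501 to 1107 CPM, lowest in NCM661). Other leukocyte lists did not all share this direction. Of 9 alveolar macrophage markers, 7 were above 0, with a median log2 fold change of 0.37. Among genes past the filter, 3 of 6 for B cells, 3 of 6 for dendritic cells, 3 of 7 for T and NK cells and 0 of 2 for neutrophils were above 0. Ace, counted as an NCM marker, is also made by lung capillary endothelium. All 11 epithelial genes had a log2 fold change above 0, with sums of 327 to 2145 against 1787 to 2741 CPM that overlapped, and none was at 0 in every library. Of 12 fibroblast and smooth muscle genes, 10 of the 11 that passed the filter were above 0, with sums of 90.4 to 221 against 215 to 548 CPM, and Lum, a fibroblast gene, was at 0 in every library but NCM661. Platelet genes, which share Vwf and Pecam1 with endothelium, summed to 0.885 to 20.9 and 4.46 to 41.1 CPM, with Gp6 at 0 in every library but NCM661. None of these genes passed the adjusted threshold between the NCM genotypes, and their part in the result was not tested. The shares of non-exonic reads overlapped between the NCM genotypes.

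**Figure D3:**
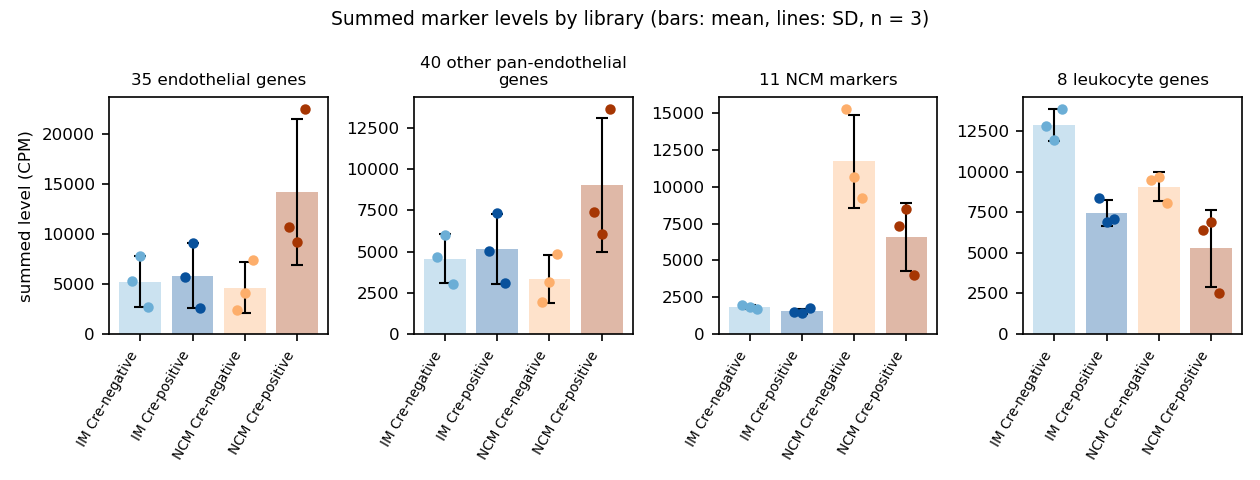
Summed level in CPM of the 35 endothelial genes, 40 other pan-endothelial genes, 11 NCM markers and 8 general leukocyte genes; points are libraries, bars are group means and lines are SD (n = 3). Both endothelial lists have their highest mean in NCM Cre-positive libraries, where the NCM marker and leukocyte sums are below those of the NCM controls, with NCM661 at the extreme of the NCM libraries in all 4 panels.

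Between the IM genotypes the endothelial genes showed no common direction. Of 35, 19 had a log2 fold change above 0 (53.2% of all genes did), the median was 0.02 against 0.07 over all genes, and the values ran from -0.62 for Ramp2 to 0.75 for Ptprb. None passed the adjusted threshold in edgeR (41 genes, 0.288%), and none had an unadjusted p under 0.05, where 6.36% of all genes were higher and 3.48% lower. No member was free of overlap, against 16.2% of all genes with Cre-positive libraries above and 13.4% below. Cdh5 was at 463, 619.7 and 209 CPM in Cre-negative and 511, 858 and 213 CPM in Cre-positive IM. Kdr was at 137, 195 and 70.0 CPM and 191, 346 and 80.5 CPM, and Cd34 at 65.0, 86.1 and 38.7 CPM and 53.4, 76.1 and 39.8 CPM. For each of these genes IM660 was the lowest control and IM661 the lowest Cre-positive library, so that the spread within a group exceeded the difference between groups.

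The largest differences in IM were those of Ptprb (log2 fold change 0.75, SE 0.60), Bmpr2 (0.71, SE 0.42), Nos3 (0.71, SE 0.79) and Ramp2 (-0.62, SE 0.84), and their edgeR adjusted p-values were 0.845, 0.670, 0.950 and 0.974. Leukocyte genes summed to 11924 to 13881 CPM in Cre-negative and 6879.5 to 8392 CPM in Cre-positive IM, without overlap, and their part in the result was not tested. The share of non-exonic reads did not overlap between the IM genotypes either. With that share as a covariate the median of the members was 1.74 and all 35 were above 0. Of them, 2 had an unadjusted p under 0.05, with no percentage of all genes given beside it, and none passed the adjusted threshold. In IM the share and the genotype cannot be told apart.

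The difference of the genotype effects, NCM minus IM, was above 0 for 33 of 35 members (43.3% of all genes), with a median of 1.68 against -0.19 over all genes. No gene of the 14254 passed the adjusted threshold in edgeR (0%), and 15 of 35 members had an unadjusted p under 0.05 and a larger effect in NCM, against 2.76% of all genes. The largest differences of effects were those of Cd34 (log2 fold change 2.43, SE 0.65, adjusted p = 0.369), Cav2 (log2 fold change 2.41, SE 0.62, adjusted p = 0.344) and Cav1 (log2 fold change 2.35, SE 0.83, adjusted p = 0.477), in edgeR. DESeq2 passed Cd34 and Cav2 (difference 2.58 and 2.57 on the log2 scale, adjusted p = 0.0489 and 0.0474), against 0.154% of genes past it with a larger effect in NCM. Flt1 (-0.06, SE 0.66) and Ednrb (-0.36, SE 1.53) were the 2 members below 0. With the non-exonic share as covariate, the median difference was 0.24, and none of the 35 had an unadjusted p under 0.05. Without NCM661 the median was 1.0 and the count was 4 in place of 15. No share of all genes is given for either of these fits. That an effect differs between the cell types was therefore not shown by the edgeR test for any single member.

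In Cre-negative animals few of the endothelial genes differed between IM and NCM. None of the 35 passed the adjusted threshold in edgeR, where 7.48% of all genes did, and the median log2 fold change, IM over NCM, was 0.38, with 27 of 35 above 0 (52.5% of all genes). At an unadjusted p of 0.05, 3 of 35 were higher in IM (9.02% of all genes) and 1 was higher in NCM (11.1%). Car4 was at 95.2, 136 and 99.9 CPM in IM and 11.5, 12.2 and 50.5 CPM in NCM. All 3 IM libraries lay above the NCM libraries (log2 fold change 2.16, SE 0.66, adjusted p = 0.0635, edgeR). Cav2 was at 80.9, 105 and 58.3 CPM in IM and 19.8, 35.7 and 40.3 CPM in NCM, again without overlap (log2 fold change 1.35, SE 0.44, adjusted p = 0.0787, edgeR). DESeq2 passed both (adjusted p = 0.00898 for Car4 and 0.0264 for Cav2), as it did 5.99% of all genes with IM higher. Apart from Flt1, the other members overlapped, whereas 18.6% of all genes had IM above and 17.2% IM below.

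Flt1 had the lowest value of the members in this comparison. It was at 143, 189 and 71.6 CPM in IM Cre-negative and 279, 292 and 304 CPM in NCM Cre-negative libraries. Every NCM library was above every IM library (log2 fold change -1.12, SE 0.47, adjusted p = 0.191, edgeR), and a fit on those 2 groups alone put Flt1 past the threshold (adjusted p = 0.0281). Kdr was at 137, 195 and 70.0 CPM and 75.4, 94.3 and 246 CPM (log2 fold change -0.05, SE 0.58), ranges that overlapped almost fully. Eng had a log2 fold change of 0.96 (SE 0.45, edgeR adjusted p = 0.245), and its libraries overlapped. When the non-exonic share was a covariate, the median of the members was -0.88 in place of 0.38. That share did not overlap between these 2 groups (38.5 to 44.2% in IM, 58.1 to 66.8% in NCM), and lanes never held both cell types, so neither can be told apart from cell type here.

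In Cre-positive animals 33 of 35 endothelial genes had a lower fitted level in IM than in NCM, with a median log2 fold change of -1.33. Values above 0 were found for 2 members, Ednrb and Car4, and for 55.5% of all genes. Cd34 passed the threshold: it was at 53.4, 76.1 and 39.8 CPM in IM and 177, 128 and 272 CPM in NCM, and all IM libraries lay below all NCM libraries (log2 fold change -1.77, SE 0.46, adjusted p = 0.0398, edgeR). It was the only member among the 652 genes (4.57%) past the threshold. At an unadjusted p of 0.05, 18 of 35 were lower in IM, against 5.84% of all genes. That count was 4 without NCM661, and 7 without IM649 or without IM661, and no shares of all genes are given for those fits. Without overlap were 6 of 35, namely Cdh5, Pecam1, Podxl, Cd34, Tie1 and Ptprb, against 6.25% of all genes. DESeq2 passed Cd34, Pecam1, Robo4 and Tie1, all lower in IM (3.13% of genes). Without NCM661 the median was -0.63, and Cd34 no longer passed. Cd34 also missed the threshold when IM649, IM650, IM661, IM648, NCM649 or NCM657 was left out, in a fit on these 2 groups alone (log2 fold change -1.82, edgeR adjusted p = 0.0556), and with the library number as a replicate block (-1.75, adjusted p = 0.0708). Ednrb had a log2 fold change of 1.09 (SE 1.10) and Car4 one of 0.48 (SE 0.64). The comparisons within each genotype and within each cell type share their libraries in pairs, so that they are not independent of each other.

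The mix of endothelial transcripts was described as each gene's share of the summed level of the 35, a measure that removes differences in the sum itself. Tie1 was the most constant, with 1.47, 1.58 and 1.39% in IM Cre-negative, 1.31, 1.23 and 1.31% in IM Cre-positive, 1.19, 1.16 and 1.24% in NCM Cre-negative and 1.68, 1.54 and 1.53% in NCM Cre-positive libraries. Its shares thus ran from 1.16 to 1.68%, a narrow range beside that of the summed level, from 2390.5 to 22576 CPM. They still did not overlap between genotypes, being higher in Cre-positive NCM and lower in Cre-positive IM than in the controls. The SD of the log2 ratio of Tie1 to the other 34 genes over the 12 libraries was 0.18. It was 0.20 for Calcrl, 0.22 for Podxl, 0.23 for Kdr, 0.25 for Pecam1 and 0.28 for Cdh5. The least constant genes were Ednrb at 2.63, Car4 at 1.28, Sox17 at 1.24 and Flt1 at 0.74.

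Flt1 took 11.7, 7.15 and 4.11% of the summed level in NCM Cre-negative libraries. In the other 9 libraries its share was 2.42 to 3.57%, so that all 3 NCM controls lay above every other library. NCM648, with the lowest member sum of the series, had the largest Flt1 share. Thbd and Bmpr2 were also at their highest share in NCM648, at 11.6 and 12.5%, against medians of 7.34 and 6.72% over the 12 libraries. Car4 took 1.81, 1.75 and 3.68% in IM Cre-negative and 2.18, 0.905 and 1.38% in IM Cre-positive libraries, and 0.481, 0.299 and 0.683% and 0.235, 0.367 and 0.510% in the NCM groups. Every IM library thus had a higher Car4 share than any NCM library. Car4 is also known in alveolar macrophages. The 9 alveolar macrophage markers summed to 1723 to 1775 CPM in IM Cre-negative and 341 to 379 CPM in NCM Cre-negative libraries. In Cre-positive libraries they summed to 556 to 1610 CPM in IM and 189 to 614 CPM in NCM. Their part in the Car4 values was not tested. Acvrl1 had 6.56% ± 0.319 (SD, n = 3) in IM Cre-negative, 4.52% ± 0.935 in IM Cre-positive, 3.78% ± 0.128 in NCM Cre-negative and 3.37% ± 0.970 in NCM Cre-positive libraries. Over the 12 libraries the Pearson r of a gene's log2 CPM with the mean of the other members was 0.99 for Calcrl, 0.61 for Flt1, 0.51 for Car4 and 0.06 for Ednrb, and 0.68 to 0.98 for the rest, a description of points that share library, depth and scaling.

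**Figure D4:**
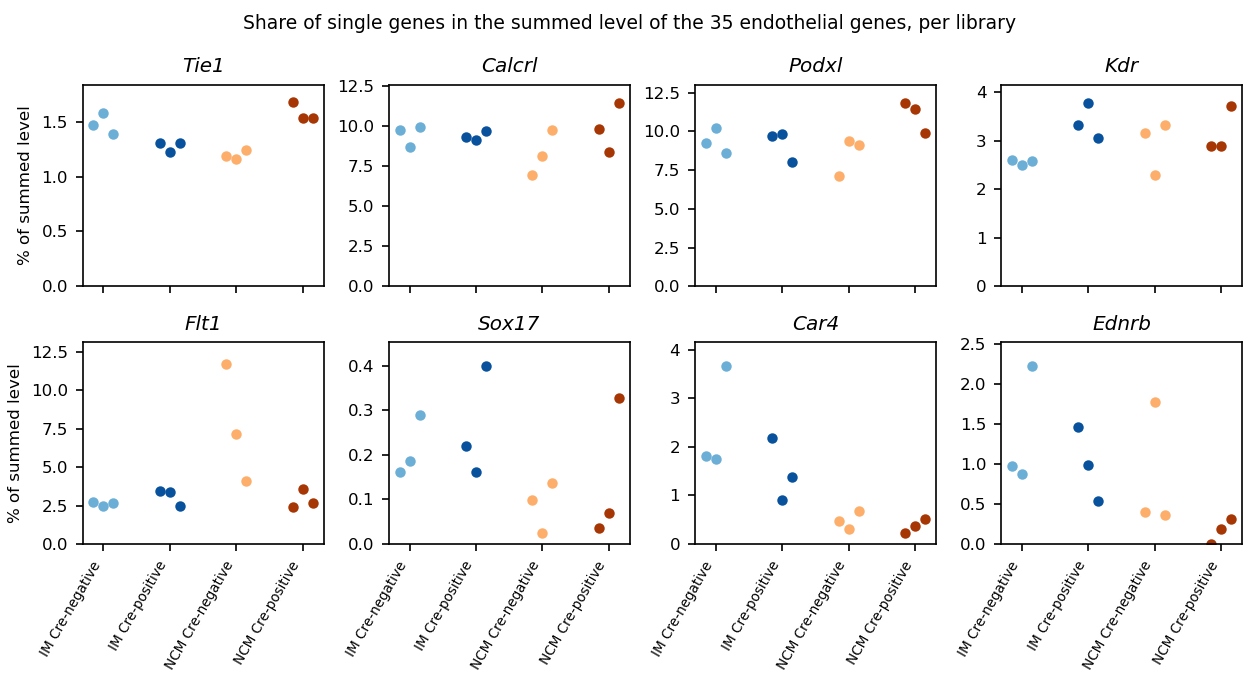
Share of 8 genes in the summed level of the 35 endothelial genes, in percent, per library (points) and group. The top row shows the most constant genes, with Tie1 between 1.16 and 1.68%, and the bottom row the least constant, with Flt1 highest in the 3 NCM Cre-negative libraries and Car4 highest in IM.

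Other endothelial genes were taken from 6 lists with 73 entries, of which 71 passed the filter. Between the NCM genotypes none of the 71 passed the adjusted threshold in edgeR, and 30 (42.3%) had an unadjusted p under 0.05 in either direction, against 16.1% of all genes. Without NCM661 that count was 20, and no share of all genes is given for that fit. The median log2 fold change was 1.65 over 40 other pan-endothelial genes, 1.98 over 6 genes of aerocytes, the capillary cells of gas exchange, 1.65 over 8 arterial genes and 1.14 over 6 genes of general capillaries. It was -0.53 over 5 venous and -1.20 over 6 lymphatic genes, and of the lymphatic genes Prox1, Reln and Mmrn1 were at 0 in NCM649 and NCM650. The 3 with the smallest p were Kitl, the ligand of KIT (log2 fold change 1.88, SE 0.40, adjusted p = 0.0502), Cd93, a surface lectin of endothelium and myeloid cells (log2 fold change 1.58, SE 0.41, adjusted p = 0.0762), and Shank3 (log2 fold change 2.23, SE 0.59, adjusted p = 0.0837), in edgeR. Kitl was at 44.9, 43.7 and 89.5 CPM in Cre-negative and 257, 112 and 285 CPM in Cre-positive NCM, with all Cre-positive libraries above the controls.

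Between the cell types, 5 of these 71 genes (7.04%) passed in Cre-negative animals and 3 (4.23%) in Cre-positive animals, shares close to the 7.48% and 4.57% of all genes. Plxnd1, a semaphorin receptor that macrophages also express, was at 354, 341 and 328 CPM in IM and 46.2, 114 and 88.1 CPM in NCM (log2 fold change 2.04, SE 0.43, adjusted p = 0.00794, edgeR). Lpl, the lipoprotein lipase (log2 fold change 2.42, SE 0.51, adjusted p = 0.00832), Notch1 (log2 fold change 1.35, SE 0.32, adjusted p = 0.0158) and Vcam1 (log2 fold change 4.0, SE 1.13, adjusted p = 0.0460) were also higher in IM, and Klf2, a factor of quiescent endothelium and of monocytes (log2 fold change -0.93, SE 0.25, adjusted p = 0.0292), was higher in NCM, all in edgeR. Plxnd1, Vcam1 and Klf2 passed in the same directions in Cre-positive animals, with adjusted p = 0.0119, 0.0258 and 0.0179. In the IM genotypes and in the difference of effects none of the 71 passed in edgeR. The smallest p there was that of Angpt2, an antagonist ligand of TIE2 (log2 fold change 1.96, SE 0.78, adjusted p = 0.374), in IM, at 2.41, 8.49 and 4.72 CPM in Cre-negative and 22.6, 30.5 and 7.71 CPM in Cre-positive libraries, which overlapped. In the difference of effects Myct1 came first (log2 fold change 2.79, SE 0.96, adjusted p = 0.457, edgeR), followed by Nostrin and Ushbp1.

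Among 5992 other genes, those averaging 4 or more in log2 CPM and bearing a name that is not systematic, the 10 whose level over the 12 libraries was most like the mean of the members had a Pearson r of 0.97 to 0.99. They were Ntn1, Pcdh1, Ptrf, Cyp1a1, Epas1, Ehd2, Acer2, Palmd, Slc9a3r2 and Cxcr7, of which Palmd was on the lists above. Ntn1 (netrin-1) had the highest r, 0.99, and was at 36.6 ± 25.4 CPM in NCM Cre-negative and 139 ± 94.6 CPM in NCM Cre-positive libraries (SD, n = 3). Epas1, which encodes HIF-2α, the oxygen-regulated relative of the targeted gene, was at 704 ± 453 and 2356 ± 1279 CPM. Cyp1a1, a cytochrome P450 induced through the aryl hydrocarbon receptor, was at 524 ± 407 and 1771 ± 1201 CPM. These genes were ranked by the level itself, so their values are a description.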

How the data were processed

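The 12 deposited files hold the authors' raw read counts per gene, with no scaling or filter. Cutadapt 1.12, TopHat2 2.1.1 and HTSeq 0.6.0 with GRCm38 (mm10) are named in the submitters' processing notes; for options, annotation and strand, the setting is not given in the sources used here, so that overlapping or antisense reads could be counted for a member. Per the labels, libraries were made with the SMARTer Stranded Total RNA-seq Pico kit. The 5 summary rows of each file stayed out of library sizes. Genes were kept by edgeR's filterByExpr (minimum count 10), and a robust quasi-likelihood fit with TMM factors and 4 group means covered all 12 libraries (edgeR 4.0.16, limma 3.58.1, R 4.3.3), with 5 contrasts, Benjamini-Hochberg adjustment over 14254 genes and a threshold of 0.05. CPM use TMM-scaled library sizes, RPKM add exon lengths from GENCODE M21, and log2 CPM for correlations have a prior count of 2. Tables and figures were made in Python 3.11.15 with matplotlib 3.10.9. DESeq2 1.42.0, RLE factors, no filter, fits on 2 groups, sequencing lane (as the deposited files are named) or non-exonic share as covariate, the number as a block and leaving out each library were tried as alternatives. The edgeR fit was also run on simulated counts with 200 genes changed 4-fold, up or down, in NCM Cre-positive libraries. Between the NCM genotypes it recovered 34.5% of them at the threshold, and 9.21% of the genes it called were false. Many changes of that size would thus be missed. All 35 members and the 10 genes of closest pattern are named; other endothelial genes are named if past the threshold (at most 6 per contrast) or else the 3 with the smallest p. Of the 73 entries on other endothelial lists and 103 on 12 lists of other cell types, 7 were matched through older symbols. The members and lists were chosen with earlier results of these data known.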

Additional observations from a re-analysis of the deposited data

How the results depend on the processing

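The median log2 fold change of the 35 endothelial genes between NCM genotypes stayed above 0 in every fit, from 1.05 to 2.37 when single libraries were left out, and was 1.92 with RLE factors and 1.82 with lane as covariate. How many members passed depended on the fit: 0 in edgeR, 2 with RLE factors, 18 and 20 with DESeq2 (without and with independent filtering), 4 without the filter, 3 with the non-exonic share as covariate, and 0 to 3 without 1 library. Other endothelial genes went from 0 to 1, 24, 24, 2 and 4, and 0 to 4, and all genes from 60 to 928, 953, 153 and 331, to 0 with 2 groups and 3 with lane, and to between 4 and 570. The cause was not tested.

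In the other contrasts, DESeq2 without and with independent filtering gave, for IM genotypes, 331 and 373 genes (41 in edgeR), for the difference 2 and 2 members and 62 and 62 genes (0 and 0), for IM against NCM in Cre-negative animals 2 and 2 members and 1751 and 1768 genes (0 and 1066), and in Cre-positive animals 4 and 4 members, 10 and 10 other endothelial genes and 1214 and 1228 genes (1, 3 and 652). With no filter, IM genotypes gave 77 genes and IM against NCM in Cre-negative animals 1 member. With only 2 groups the counts were 950 genes for IM genotypes, 3 members and 2015 genes for the Cre-negative contrast, and 0 members, 1 other endothelial gene and 228 genes for the Cre-positive one. Lane as covariate gave 0 genes for IM genotypes and was not run between cell types, and the fit on 2 groups was not run for the difference. The non-exonic share as covariate gave medians of 1.74 (IM genotypes), 0.24 (difference) and -0.88 (Cre-negative contrast), 0 genes for IM genotypes, 0 other endothelial genes and 40 genes in the Cre-negative and 6 other endothelial genes in the Cre-positive contrast. Ednrb between NCM genotypes turned to 0.17 with lane, 0.71 without NCM657 and 0.28 without NCM649, and ran from -2.06 to 0.71 over all single omissions.

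Leaving out 1 library gave 0 to 234 genes and medians of -0.35 to 0.37 for IM genotypes, 0 to 34 genes, 0 members and medians of 1.0 to 2.33 for the difference, 0 to 2 members, 2 to 6 other endothelial genes, 504 to 1525 genes and medians of -0.03 to 0.97 in the Cre-negative contrast, and 0 to 1 member, 0 to 5 other endothelial genes, 346 to 1709 genes and medians of -1.72 to -0.63 in the Cre-positive one.

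Labels give IM and NCM libraries shared numbers without saying what a number marks. Deviations of same-numbered libraries correlated at -0.07 to 0.08, none over 0.1, and libraries of 2 of the 5 shared numbers (IM650 and NCM650, IM661 and NCM661) did not correlate best with each other, so the numbers were not taken as pairs. With the number as a replicate block, the Cre-negative contrast gave 0 members (median 1.02), 2 other endothelial genes and 289 genes, and the Cre-positive contrast 0 members (median -1.16), 1 other endothelial gene and 397 genes.

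Depth limits the rare members, such as Sox17 with 8 counts and Ednrb with 1 in their lowest library.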
